A study of Mus musculus with 76 samples.

Results

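The genes described here are 9 mouse genes whose transcripts are used as readouts of how strongly a T cell receptor has signalled. They were chosen by name: Nr4a1 (ENSMUSG00000023034), Nr4a3 (ENSMUSG00000028341), Egr2 (ENSMUSG00000037868), Egr3 (ENSMUSG00000033730), Cd69 (ENSMUSG00000030156), Cd5 (ENSMUSG00000024669), Dusp5 (ENSMUSG00000034765), Dusp6 (ENSMUSG00000019960) and Itm2a (ENSMUSG00000031239). Each was found once among the 37980 rows of the deposited expression table, so that all 9 of 9 are accounted for. The choice by name was made with earlier results of these data known. They are described over 75 libraries of 24 cell groups, each library made from 1000 sorted cells.

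All mice were C57BL/6. The induced groups descend from pro-/pre-B cells of the bone marrow that were infected in culture with a Hoxb5 virus, sorted and given to sublethally irradiated recipients, from whose marrow or thymus the cells were later taken. These groups are BM_iETPs (2 libraries) from marrow and, from thymus, Thy_iETPs (3), iDN1 (4), iDN2 (2), iDN3 (3), iDN4 (4), iDP (3), iCD4_SP (4) and iCD8_SP (4). The natural groups from thymus are Thy_ETPs (2), DN1 (3), DN2 (3), DN3 (2), DN4 (3), DP (4), CD4_SP (3) and CD8_SP (3). Those from marrow are HSC (4), MPP (4), BM_ETPs (3), Pro-_Pre-B (3), mature B cells (4), mature T cells (3) and mature myeloid cells (2). Here ETP is an early T progenitor, DN a double negative thymocyte lacking both coreceptors CD4 and CD8, DP a double positive thymocyte carrying both, and SP a single positive thymocyte carrying CD4 or CD8. The labels do not say whether the natural cells came from irradiated recipients or from untreated mice, nor whether libraries of a group came from separate animals, and p-values then measure only the spread between these libraries. Age and sex of the mice were not given in the sources used here.

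A thymocyte that binds peptide and MHC through its receptor activates the kinases Lck and Zap70, which open calcium, NFAT, Ras and ERK signalling. Within hours this raises immediate targets such as the orphan nuclear receptors of the Nr4a family and the zinc finger factors of the Egr family, the surface lectin CD69, and phosphatases that switch ERK off again. CD5, an inhibitory surface receptor, is set to a level that follows the strength of self-recognition and is kept for longer. In the thymus these genes mark beta selection at the DN3 to DN4 step and positive selection of DP cells into CD4 SP and CD8 SP cells. The same genes also answer growth factors, cytokines and cell handling in cells that have no T cell receptor.

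Promoter sequences were at hand for 7 of the 9 members (RefSeq, GRCm38.p6; all but Egr3 and Cd69), as windows of 250 bases before each annotated start. Those of the Nr4a pair and of the Dusp pair are shown, because in the values below Nr4a1 and Nr4a3 part in CD4 SP cells and Dusp5 and Dusp6 are low together in induced DP cells. Bases inside an annotated exon were left out. Capitals mark matches on either strand to the cyclic AMP response core TGACG, the AP-1 site TGANTCA, the Egr core GCGNGGG, the Nr4a monomer site AGGTCA, the Ets site CCGGAA, the NFAT core GGAAAA and the serum response element (searched by its usual consensus of a CC, 6 A or T, and a GG).
Nr4a1, chr15:101266596-101266845, plus strand: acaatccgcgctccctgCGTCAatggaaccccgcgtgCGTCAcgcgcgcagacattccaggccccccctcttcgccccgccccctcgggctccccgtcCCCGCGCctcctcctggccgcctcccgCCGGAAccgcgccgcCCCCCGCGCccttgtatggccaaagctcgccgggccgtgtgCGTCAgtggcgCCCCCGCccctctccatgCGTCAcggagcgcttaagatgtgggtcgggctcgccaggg
Nr4a3, chr4:48045055-48045152, plus strand: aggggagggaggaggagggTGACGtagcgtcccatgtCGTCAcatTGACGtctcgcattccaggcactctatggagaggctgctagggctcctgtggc
Dusp5, chr19:53528895-53529108, plus strand: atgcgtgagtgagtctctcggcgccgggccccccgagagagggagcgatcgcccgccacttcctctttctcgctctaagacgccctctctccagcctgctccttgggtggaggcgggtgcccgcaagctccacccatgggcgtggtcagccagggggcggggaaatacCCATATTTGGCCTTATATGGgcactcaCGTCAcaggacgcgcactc
Dusp6, chr10:99262981-99263230, plus strand: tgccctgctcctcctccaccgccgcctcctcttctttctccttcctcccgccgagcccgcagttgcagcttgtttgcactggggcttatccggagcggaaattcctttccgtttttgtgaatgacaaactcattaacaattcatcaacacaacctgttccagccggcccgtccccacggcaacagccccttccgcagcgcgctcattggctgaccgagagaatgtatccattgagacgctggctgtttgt
In the full window Nr4a1 held 4 cyclic AMP response cores, 4 Egr cores of which 2 overlap, and 1 Ets site. Nr4a3 held 4 cyclic AMP response cores, 3 of them in the stretch shown. Dusp5 held 2 serum response elements side by side and 1 cyclic AMP response core. Of the members not shown, Egr2 had 5 windows, of which the 2 with most matches held 5 each. One held 1 serum response element, 2 cyclic AMP response cores and 2 Egr cores, and the other 1 serum response element, 3 Ets sites of which 2 overlap and 1 NFAT core that also overlaps them. Itm2a held 1 cyclic AMP response core. Cd5 and Dusp6 held none of these letter strings. Among 32851 windows of the same length, 17.8% held the cyclic AMP response core, 6.75% the AP-1 site, 20.3% the Egr core, 14.0% the Nr4a site, 12% the Ets site, 20.4% the NFAT core and 1.47% the serum response element. A match is a description of the letters and shows no binding.

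Values are FPKM as deposited (by its name, fragments scaled to transcript length and to mapped fragments), so levels of different genes are set side by side per length. How the libraries were scaled to one another is not given in the sources used here. From the steps between low values, 1 FPKM was estimated to stand for 0.975 to 11.3 fragments per kilobase (median 4.25), lowest in the 2 mature myeloid libraries. The 11.3 is the estimate of CD8_SP library 1 alone, beside 3.88 and 3.61 in the others of that group, and was not checked further. The lowest value given below for 1 fragment of Egr3 rests on that estimate. Between 9828 and 12202 genes reached 1 FPKM per library. Hoxb5 itself was at 0.0662 to 3.47 FPKM in every induced library and at 0 to 0.0891 in the natural thymic ones. The sum of 8 T cell markers was at least 4484 FPKM in every thymic library. It was at most 38.2 in BM_iETPs, with Cd3e and Trac at 0, whereas their 8 B cell markers summed to 7641 to 8030 against 7914 to 8625 in Pro-_Pre-B. The label of an early T progenitor thus goes with B cell transcripts in BM_iETPs, and with myeloid marker sums of 12620 to 14762 FPKM in BM_ETPs. In natural DN1, 7 natural killer markers summed to 3681 to 4218 FPKM, against 362 to 673 in iDN1.

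The 9 members differed in reach. Cd69 was above 0 in 75 of 75 libraries, Dusp5, Dusp6 and Itm2a in 74, Nr4a1 in 73, Cd5 in 65, Egr2 in 63 and Nr4a3 in 54. Egr3, the zinc finger factor that acts beside Egr2 in thymocytes, was above 0 in only 2 libraries, 1 of mature T cells at 0.225 FPKM and 1 of mature myeloid cells at 1.48 FPKM, where 1 fragment is worth 0.0224 to 0.260 FPKM. It was listed at 0 in the other 73 and did not pass the filter on low values, so 8 of the 9 members were tested. In such bulk libraries fewer cells with a transcript and less transcript per cell cannot be told apart.

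**Figure D1:**
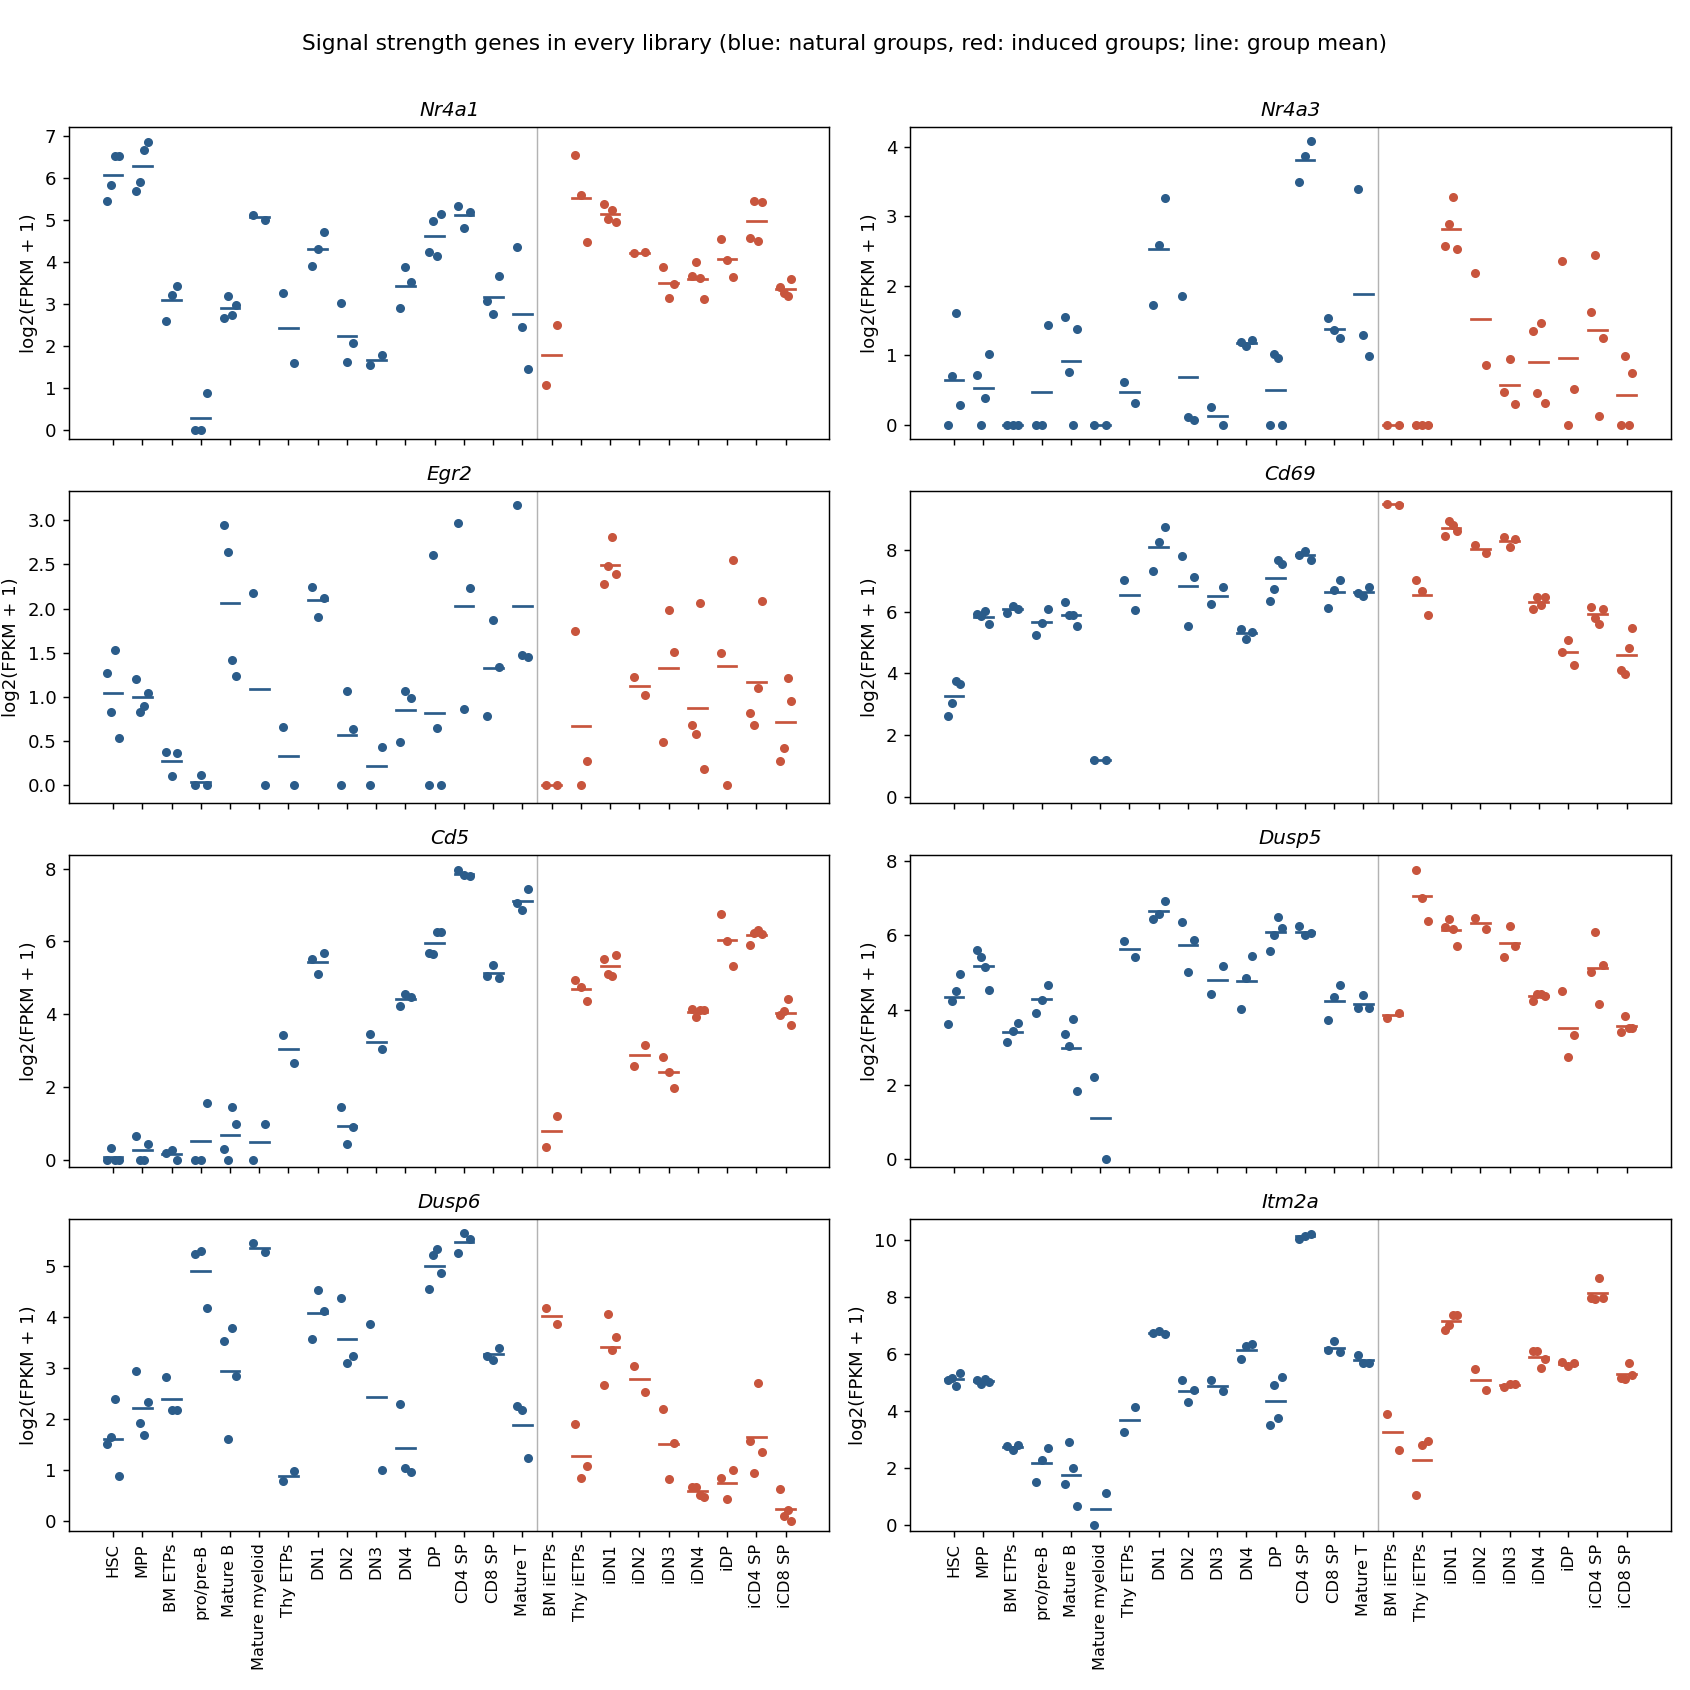
Each panel plots 1 member on the log2(FPKM + 1) scale, with the 24 groups on the x axis, a point for each library and a line for the group mean. Natural groups are on the left in blue and induced groups on the right in red. Cd5 is near 0 in marrow progenitors and B cells and highest in natural CD4 SP cells, while Nr4a1 is highest in HSC and MPP.

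Nr4a1, the nuclear receptor also called Nur77, was highest outside the T lineage. MPP libraries held 51.3, 58.9, 101 and 117 FPKM and HSC libraries 43.1, 56.4, 91.2 and 91.6, and these ranges overlap. Thy_iETPs followed with 93.1, 47.5 and 21.3. The next 5 groups in order of mean, iDN1 (30.1 to 40.7), natural CD4 SP (27.4 to 39.4), mature myeloid cells (31.4 and 34.1), iCD4_SP (21.8 to 42.8) and natural DP (16.8 to 34.6), overlap one another. Pro-_Pre-B was last, with 0, 0 and 0.845. Thus high Nr4a1 was not limited to cells with receptor transcripts: T cell marker sums in HSC and MPP were at most 3.39 FPKM. The 14 immediate early and stress genes of the handling list were also highest in these groups, with summed levels of 2891 to 3422 FPKM in HSC and 3799 to 4896 in MPP against at most 2435 in every other group, and their part in the Nr4a1 level was not tested.

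Nr4a3, the related receptor Nor1, had a narrower pattern. Natural CD4 SP libraries held 10.3, 13.6 and 15.9 FPKM. The next groups were iDN1 at 4.75 to 8.74, natural DN1 at 2.31, 4.99 and 8.65, and mature T cells at 9.47, 1.46 and 0.979. Every natural CD4 SP library was above every other library of the table. All BM_ETPs, BM_iETPs, Thy_iETPs and mature myeloid libraries were listed at 0.

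Egr2, which restrains the T cell response and is needed for full positive selection, stayed low. Its highest library was a mature T cell library at 8.00 FPKM, beside 1.77 and 1.74 in the others of that group. Natural CD4 SP held 6.82, 0.823 and 3.72, iDN1 3.86 to 6.01, natural DN1 2.74 to 3.75, and mature B cells 1.35 to 6.68. These 5 groups overlap, and the gene reached 1 FPKM in 37 of 75 libraries. Egr2 was called in 1 of the 27 comparisons tested.

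Cd69, the lectin that holds cells in tissue by binding the egress receptor S1PR1, was highest in BM_iETPs at 720 and 704 FPKM. The iDN1 libraries came next, at 348 to 492. They overlap with natural DN1 at 159, 305 and 432, and this group with iDN3 at 271 to 344 and iDN2 at 283 and 237. Natural CD4 SP held 227, 248 and 204 (lowest 204.3), just above natural DP at 81.1 to 203.5. iDP (18.4 to 32.9) and iCD8_SP (14.8 to 43.1) overlapped at the low end, and mature myeloid cells were last at 1.27 and 1.28.

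Cd5 followed the T lineage most closely. Natural CD4 SP held 251, 227 and 220 FPKM, mature T cells 133, 115 and 172, iCD4_SP 58.7 to 77.9, iDP 39.3 to 106 and natural DP 49.3 to 75.4. The top 2 groups do not overlap each other or the rest, and the last 3 of these overlap. In HSC, MPP, Pro-_Pre-B, mature B cells, mature myeloid cells, BM_ETPs and BM_iETPs no library exceeded 1.94. Natural DN2, at 1.74, 0.336 and 0.875, was the thymic group nearest to that level.

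Dusp5, a nuclear phosphatase of ERK, was highest in Thy_iETPs at 216, 126 and 82.0 FPKM, and then in natural DN1 at 85.7, 94.7 and 119, which overlap. iDN2, iDN1, natural DP and natural CD4 SP followed between 47.1 and 89.7 and overlap. Dusp6, its cytoplasmic counterpart and itself an ERK target, was highest in natural CD4 SP at 36.9, 48.8 and 44.8, mature myeloid cells at 42.9 and 37.4, natural DP at 22.5 to 39.3 and Pro-_Pre-B at 36.5, 38.3 and 17.0. It was lowest in iCD8_SP, at 0.532, 0.0649, 0.156 and 0.

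Itm2a, a membrane protein known as a marker of thymic selection, had the widest range in the set. Natural CD4 SP held 1041, 1135 and 1187 FPKM and iCD4_SP 250, 245, 408 and 245. No library of another group exceeded 163, the highest iDN1 value. Natural DP had the lowest mean among thymic groups from DN2 onward, at 10.5, 28.8, 12.5 and 35.4, where libraries 2 and 4 were above libraries 1 and 3. Nr4a1 split the same 4 libraries in the same way, at 30.9 and 34.6 against 17.9 and 16.8, whereas Cd69 did not, at 105 and 187 against 81.1 and 204.

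The steps of natural development were compared within a limma fit over all 24 groups on the log2(FPKM + 1) scale. A call is a Benjamini-Hochberg adjusted p under 0.05 over 17416 genes, and each difference is given ± its standard error. Overlap of libraries between groups is described for the members only. The share of all genes without overlap was not counted, so groups that stand apart add no support to a call. From DN3 to DN4, the step that follows beta selection, Nr4a1 and Cd5 rose, 2 of the 8 tested members, where 3.53% of all genes rose and 6.72% changed in either direction. Nr4a1 went from 1.93 and 2.50 FPKM to 6.54, 13.9 and 10.5 (log2 change 1.77 ± 0.52, adjusted p = 0.025), and Cd5 from 9.93 and 7.19 to 17.7, 22.6 and 21.4 (1.18 ± 0.37, adjusted p = 0.039). Neither pair of groups overlaps. Both calls rest on few libraries. Among 12 alternatives (other settings of the fit and each library left out in turn), that of Nr4a1 was lost under 5 (adjusted p 0.055 to 0.129) and that of Cd5 under 8 (0.055 to 0.504), among them leaving out either DN3 library or DN4 library 2 or 3. Cd69, from 74.7 and 110 FPKM down to 42.0, 33.9 and 39.8, did not pass (adjusted p = 0.059). Nor did Itm2a, from 32.7 and 25.1 up to 55.5, 76.4 and 80.0 (0.062). Cd69 and Itm2a passed with replicate numbers as a block and with only these groups in the fit (0.036 to 0.048). In the fit of only these groups the calls of Nr4a1 and Cd5 were lost.

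From DN4 to DP, 5 members rose and Itm2a fell, 6 of 8 against 24.6% of all genes. Dusp6 rose most, from 3.88, 1.04 and 0.931 FPKM to 22.5, 36.1, 39.3 and 28.2 (3.57 ± 0.46, adjusted p = 6.92e-09). Cd69 went from 42.0, 33.9 and 39.8 to 81.1, 105, 203.5 and 187 (1.78 ± 0.34, adjusted p = 4.29e-05). Cd5 rose by 1.54 ± 0.31 and Dusp5 by 1.30 ± 0.41, from 15.4, 28.0 and 42.6 FPKM to 47.1, 63.8, 89.7 and 72.6. All of these groups stand apart without overlap.
Nr4a1 rose by 1.19 ± 0.43 (adjusted p = 0.036), a call lost under 7 of 14 alternatives (adjusted p 0.057 to 0.204), among them leaving out DN4 library 1 or 3 or DP library 2 or 4. The Dusp5 call was lost without DN4 library 1 and with a pseudocount of 0.1 (adjusted p 0.069 to 0.159), and the Cd5 call with that pseudocount (0.104). Itm2a, by contrast, fell by 1.80 on the log2 scale (SE 0.36, adjusted p = 6.29e-05) from 55.5, 76.4 and 80.0 FPKM to the DP values given above. Of the handling list, 9 of 14 genes rose at this step and 0 fell, with a median of 1.04 against 0 over all genes, and its part in these rises was not tested.

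The step from DP to CD4 SP set Itm2a, Cd5 and Nr4a3 apart from the other 5 tested members. These 3 of 8 rose, where 13.2% of all genes rose and 26.7% changed in either direction. Itm2a rose by 5.79 ± 0.36 (adjusted p = 2.68e-20), Nr4a3 by 3.32 ± 0.49 (from 0, 1.04, 0.949 and 0 FPKM to the 10.3 to 15.9 of natural CD4 SP, adjusted p = 2.12e-07) and Cd5 by 1.90 ± 0.31 (adjusted p = 1.53e-06). Dusp5 and Dusp6 overlapped the DP range, with differences of 0.03 (95% interval -0.79 to 0.84) and 0.47 (-0.44 to 1.39). Egr2 (adjusted p = 0.088) and Cd69 (0.104) did not pass. Egr2 passed when CD4_SP library 2 or DP library 2 was left out, and Cd69 when DP library 3 was left out (adjusted p 0.0069 to 0.047).

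Toward CD8 SP the same DP libraries gave another picture. Itm2a rose by 1.88 ± 0.36 to 68.6, 87.1 and 65.8 FPKM (adjusted p = 3.83e-05), and Dusp5, Dusp6, Nr4a1 and Cd5 fell, 5 of 8 against 23.9% of all genes. Dusp5 fell by 1.83 (SE 0.41) to 12.3, 19.4 and 24.6 FPKM, Dusp6 by 1.73 (SE 0.46) to 8.43, 7.87 and 9.54, and Nr4a1 by 1.46 (SE 0.43) to 7.43, 5.85 and 11.8. The fall of Cd5, by 0.82 (SE 0.31) to 32.2, 40.0 and 31.1 FPKM, was lost under 10 of 14 alternatives (adjusted p 0.052 to 0.465), among them leaving out any CD8_SP library. Without CD8_SP library 2 the call of Nr4a1 was lost too (adjusted p = 0.064), and 3 members were called in place of 5. Of the handling list 5 of 14 genes fell at this step and 0 rose (median -0.43). The natural killer marker sum was at most 12.2 FPKM in natural DP, below every natural CD8 SP and CD4 SP library. The part of either in these changes was not tested. All 9 genes of the DP stage list (Rag1, Rag2, Dntt and others that mark DP cells) fell at this step and at the step to CD4 SP, but their summed level stayed at 1560 to 1781 FPKM in natural CD8 SP against 253 to 291 in natural CD4 SP.

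The same steps were then followed in the induced cells. From iDN3 to iDN4, Cd5 rose from 6.06, 4.32 and 2.93 FPKM to 16.5, 14.2, 16.2 and 16.2 (1.66 ± 0.31, adjusted p = 9.97e-05). Cd69 fell by 1.98 (SE 0.34), from 344, 271 and 330 FPKM to 67.1, 88.0, 73.7 and 87.4, and Dusp5 fell by 1.43 (SE 0.41), from 41.7, 75.6 and 51.2 FPKM to 17.8, 20.5, 20.5 and 19.9. These 3 of 8 stand against 9.03% of all genes. With a pseudocount of 0.1 the Cd5 call was lost (adjusted p = 0.108), and the Dusp5 call was lost with it and without iDN3 library 2 (0.096 to 0.115). Beside these falls, 8 of the 14 handling genes fell and 0 rose, and their part in them was not tested. None of the 8 differences between the induced and the natural DN3 to DN4 steps passed in limma (0.126% of all genes did), and 2 members, Nr4a1 and Dusp5, had an unadjusted p under 0.05.

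From iDN4 to iDP, Cd5 rose to 106, 63.4 and 39.3 FPKM (1.96 ± 0.31, adjusted p = 1.36e-06) and Cd69 fell to 24.6, 32.9 and 18.4 (by 1.63, SE 0.34, adjusted p = 0.00021). These were 2 of 8 members, where 19.6% of all genes were called. Dusp6 was 0.574, 0.586, 0.425 and 0.388 FPKM before and 0.785, 0.334 and 0.978 after, a difference of 0.17 (95% interval -0.74 to 1.08). Dusp5 passed when iDP library 1 was left out (adjusted p = 0.027). The test of the step itself, induced minus natural, was passed by Cd69 (-3.41 ± 0.48, adjusted p = 7.01e-06), Dusp6 (-3.40 ± 0.64, adjusted p = 0.0019) and Dusp5 (-2.14 ± 0.58, adjusted p = 0.046), 3 of 8, all lower, where 0.597% of all genes were lower and 1.1% passed in either direction. For Cd69 the 2 steps ran in opposite directions. For Cd5 they did not differ beyond their error (0.42, 95% interval -0.45 to 1.30). The Dusp5 difference was lost under 14 of 21 alternatives (adjusted p 0.052 to 0.204), among them leaving out any iDN4 library, iDP library 2 or 3, DN4 library 1 or 2, or DP library 2, 3 or 4. Of the handling list 5 of 14 genes had a lower induced step and 0 a higher one, and its part in these differences was not tested.

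**Figure D2:**
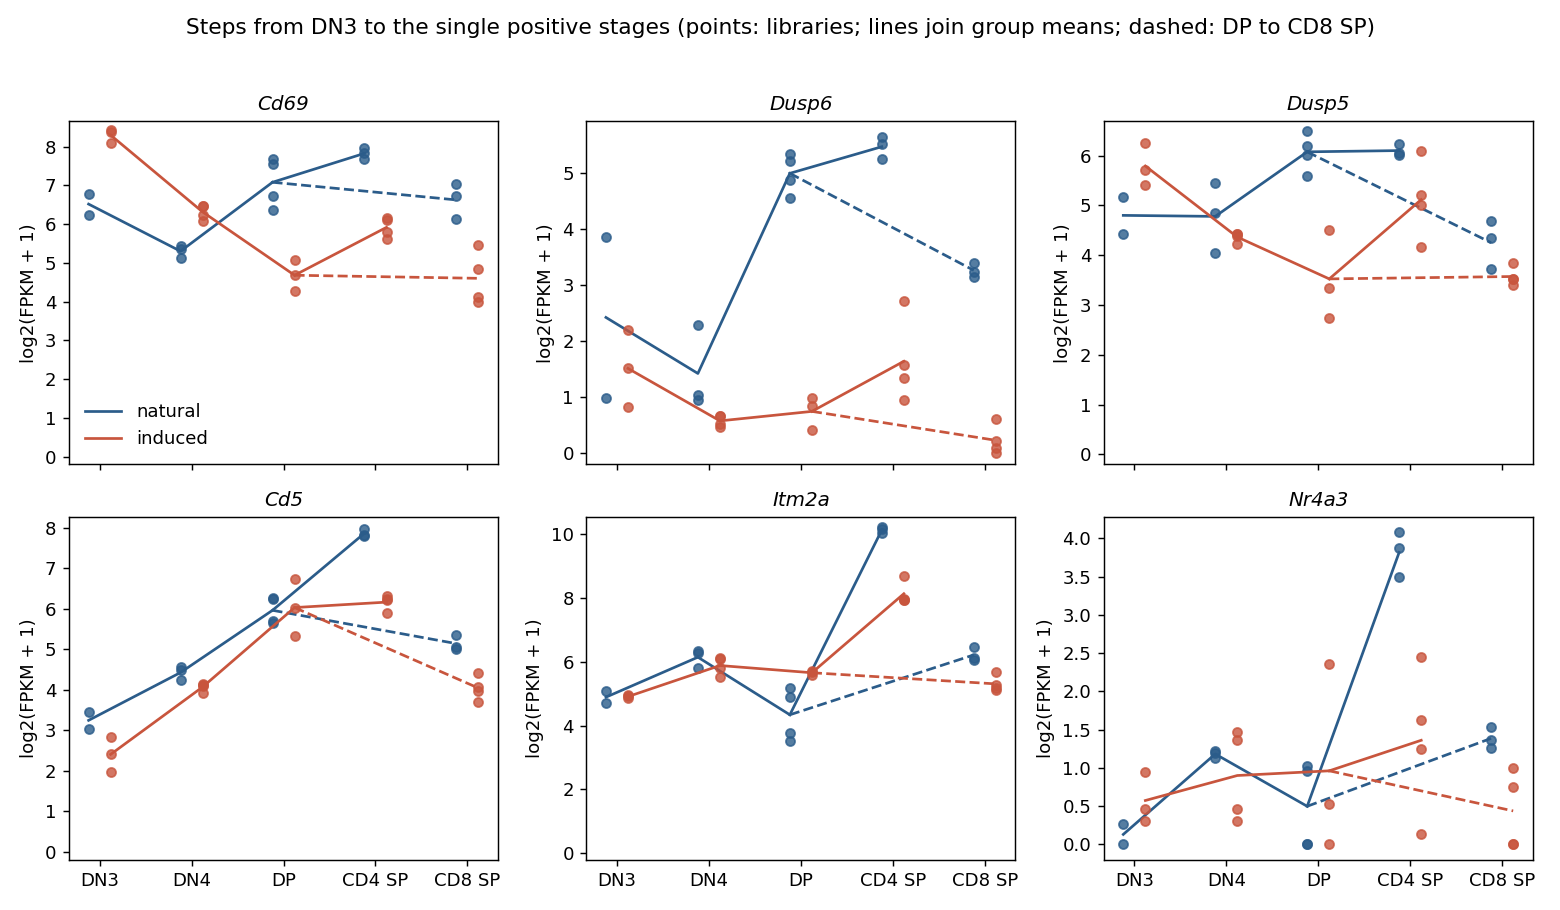
Each panel plots 1 member from DN3 to the single positive stages on the log2(FPKM + 1) scale, with a point for each library, natural in blue and induced in red, and lines that join group means (dashed from DP to CD8 SP). Natural Dusp6, Dusp5 and Cd69 are higher in DP than in DN4 libraries, while induced Cd69 is lower in iDP than in iDN4 and induced Dusp6 stays below 1 FPKM in both.

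From iDP to iCD4_SP, 3 of 8 members rose and 0 fell, against 5.9% of all genes that rose and 9.86% in either direction. Itm2a rose by 2.48 ± 0.36 from 51.7, 46.6 and 50.1 FPKM (adjusted p = 7.34e-07), Dusp5 by 1.59 ± 0.41 (from 21.7, 5.66 and 9.08 to 31.3, 67.4, 16.9 and 35.8, which overlap), and Cd69 by 1.24 ± 0.34 to 70.5, 54.4, 47.8 and 67.7. The Cd69 call was lost without iDP library 3 (adjusted p = 0.094), and the Dusp5 call without iDP library 2 and with only these groups in the fit (0.065 to 0.106). Cd5, which rose at this step in natural cells, was at 58.7, 74.7, 77.9 and 72.8 FPKM, within the iDP range. Induced minus natural, the step differed for Itm2a (-3.31 ± 0.50, adjusted p = 1.01e-06), Nr4a3 (-2.92 ± 0.70, adjusted p = 0.0015), Cd5 (-1.77 ± 0.44, adjusted p = 0.0022) and, upward, Dusp5 (1.57 ± 0.58, adjusted p = 0.0496), 4 of 8 where 17.3% of all genes differed. The Dusp5 difference was lost under 16 of 21 alternatives (adjusted p 0.058 to 0.204). With a pseudocount of 0.1 the differences of Nr4a3 and Cd5 were lost as well (0.063 and 0.258). The alternatives that lost Dusp5 included leaving out any CD4_SP library, iCD4_SP library 1, 2 or 4, iDP library 2 or 3, or DP library 2, 3 or 4.

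From iDP to iCD8_SP only Cd5 passed, 1 of 8 against 9.47% of all genes that fell and 19.2% in either direction, falling by 1.99 (SE 0.31, adjusted p = 1.22e-06) to 14.7, 15.8, 20.2 and 12.1 FPKM. Itm2a did not pass (-0.35, 95% interval -1.06 to 0.36), and its step differed from the natural one by -2.22 ± 0.50 (adjusted p = 0.0018). The Dusp5 step differed by 1.87 ± 0.58 (adjusted p = 0.031), so that 2 of 8 differed where 7.34% of all genes did. That Dusp5 call was lost under 10 of 21 alternatives (adjusted p 0.051 to 0.153), among them leaving out iCD8_SP library 2, iDP library 2 or 3, CD8_SP library 1 or 2, or DP library 3.

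Induced and natural cells of the same label were then compared at 9 stages. Nr4a1 was called higher in induced cells at thymic ETP, DN2 and DN3 and lower at marrow ETP, and Dusp6 and Cd69 were called lower at DP, CD4 SP and CD8 SP. No member passed at DN1 or DN4. Nr4a3 passed at 1 stage, Egr2 at none.

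In marrow, Cd69 was 720 and 704 FPKM in BM_iETPs against 61.9, 71.3 and 66.8 in BM_ETPs (3.40 ± 0.41, adjusted p = 6.1e-10). Dusp6 was higher at 17.0 and 13.6 against 6.06, 3.51 and 3.52 (1.63 ± 0.55, adjusted p = 0.016), and Nr4a1 lower at 1.12 and 4.71 against 5.12, 8.42 and 9.92 (-1.30 ± 0.52, adjusted p = 0.048). These 3 of 8 stand against 31.1% of all genes. Without BM_iETPs library 1, or without BM_ETPs library 2 or 3, only the Cd69 call was left, and the Dusp6 call was lost without BM_iETPs library 2 too (adjusted p 0.051 to 0.634 over the alternatives that lost either). Against Pro-_Pre-B cells, their source, BM_iETPs also had more Cd69 (36.7, 48.5 and 67.1 FPKM in the source, 3.83 ± 0.41, adjusted p = 4.9e-11) and more Nr4a1 (1.51 ± 0.52, adjusted p = 0.037), 2 of 8 against 8.1% of all genes higher and 15.5% in either direction. That Nr4a1 call was lost without Pro-_Pre-B library 1 or 2, without BM_iETPs library 2, and with only these groups in the fit (adjusted p 0.108 to 0.610). Of the ERK feedback list, 4 of 11 tested genes were higher in BM_iETPs than in the source and 0 lower, and of the handling list 5 of 14 were higher and 2 lower. The part of either in the Cd69 difference was not tested.

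In thymic ETPs, 3 of 8 members passed against 8.27% of all genes. Nr4a1 was 93.1, 47.5 and 21.3 FPKM in Thy_iETPs against 8.74 and 2.05 in Thy_ETPs (3.10 ± 0.52, adjusted p = 1.57e-05), a call kept under all 12 alternatives. Cd5 was 29.5, 26.0 and 19.7 against 9.68 and 5.36 (1.64 ± 0.37, adjusted p = 0.0016), and Itm2a 1.08, 6.06 and 6.65 against 8.56 and 16.6 (-1.43 ± 0.42, adjusted p = 0.022). Cd69 was at 57.8 to 130 FPKM in both groups. Dusp5, at 216, 126 and 82.0 against 56.3 and 41.6, did not pass (1.42 ± 0.49, adjusted p = 0.058), and passed under 4 alternatives, among them leaving out Thy_iETPs library 3 (adjusted p 0.026 to 0.036). Without Thy_ETPs library 2 the calls of Cd5 and Itm2a were lost, and that of Itm2a also without Thy_iETPs library 1 (adjusted p 0.071 to 0.409 over the alternatives that lost them). Here 5 of 14 handling genes were higher and 0 lower in Thy_iETPs, 3 of 11 ERK feedback genes were higher, and 8 dendritic cell markers summed to 1153 to 2035 FPKM in Thy_ETPs against 31.1 to 63.1 in Thy_iETPs. Their part in the member differences was not tested.

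At DN1 none of the 8 members passed in limma, where 18.8% of all genes did, and none had an unadjusted p under 0.05. Fitted on these groups alone, Nr4a1 passed (adjusted p = 0.015), at 30.1 to 40.7 FPKM in iDN1 against 14.1, 18.9 and 25.3. Of the DP stage list 7 of 9 genes were higher in iDN1 and 0 lower (median 2.03). Of 10 single positive maturation genes, such as S1pr1 and Ccr7, 1 was higher and 4 lower. These 10 summed to 6892 to 7428 FPKM in natural DN1 and 3501 to 3703 in iDN1. Their sums were 1288 to 1853 in natural DN2 and 7516 to 8591 in natural CD4 SP. The part of either list in the member levels was not tested. At DN2, Cd5 was 4.93 and 7.92 against 1.74, 0.336 and 0.875 (1.94 ± 0.37, adjusted p = 0.00077), and Nr4a1 17.6 and 17.9 against 7.23, 2.11 and 3.22 (1.98 ± 0.52, adjusted p = 0.029), 2 of 8 higher against 0.879% of all genes higher and 1.5% in either direction. The Cd5 call was lost without iDN2 library 2 (adjusted p 0.092 to 0.139 over the 3 alternatives that lost it), and the Nr4a1 call without either iDN2 library or without DN2 library 2 or 3 (0.082 to 0.244 over 7). Cd69 did not pass (1.19, adjusted p = 0.156), and passed without DN2 library 1 (0.018).

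At DN3, Cd69 was 344, 271 and 330 FPKM in iDN3 against 74.7 and 110 (1.78 ± 0.41, adjusted p = 0.0061), and Nr4a1 13.9, 7.87 and 10.2 against 1.93 and 2.50 (1.83 ± 0.52, adjusted p = 0.032), 2 of 8 higher against 2.35% of all genes higher and 3.54% in either direction. Without DN3 library 1 neither passed (adjusted p = 0.094 for Cd69), and Nr4a1 also failed without DN3 library 2 or iDN3 library 1 or 3 (0.067 to 0.157 over 7 of 12 alternatives). Cd5 was 6.06, 4.32 and 2.93 FPKM in iDN3 against 9.93 and 7.19, groups that do not overlap, and did not pass (-0.84 ± 0.37, adjusted p = 0.223). Dusp6 passed when DN3 library 2 was left out (adjusted p = 0.020). At DN4 none of 8 passed, against 0.741% of all genes. Cd69 alone had an unadjusted p under 0.05, at 67.1, 88.0, 73.7 and 87.4 FPKM in iDN4 against 42.0, 33.9 and 39.8, groups that do not overlap (1.01 ± 0.34, adjusted p = 0.227), and it passed with library weights and with these groups alone (0.0017 to 0.0026). Of the handling list, 4 of 14 genes at DN2, 7 at DN3 and 6 at DN4 were higher in induced cells and 0 lower. Hspa1a, a stress-induced chaperone of that list, was at 19.6 to 47.5 FPKM in iDN2, iDN3 and iDN4 and at most 0.416 in the natural groups. Their part in the Nr4a1 and Cd69 differences was not tested.

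**Figure D3:**
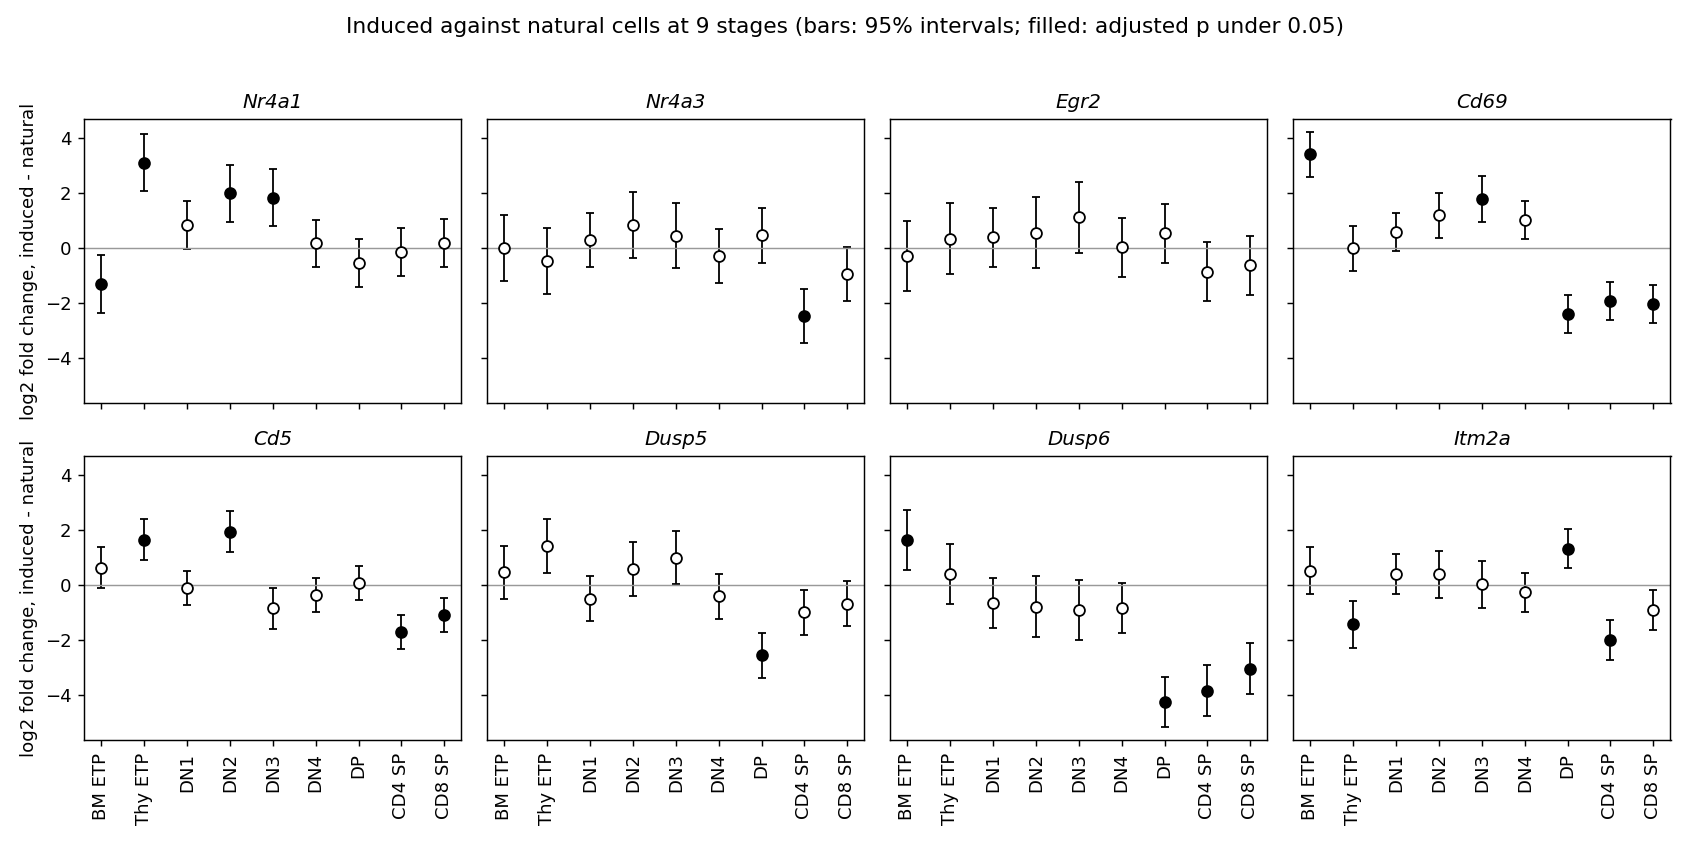
Each panel plots 1 member, with the log2 fold change of induced over natural libraries at 9 stages, bars for 95% intervals and filled points for an adjusted p under 0.05. Nr4a1 is above 0 at thymic ETP, DN2 and DN3, and Dusp6 is between -3.03 and -4.25 from DP onward.

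At DP, Dusp6, Dusp5 and Cd69 were lower in induced cells and Itm2a higher. Dusp6 was 0.785, 0.334 and 0.978 FPKM in iDP against 22.5, 36.1, 39.3 and 28.2 in DP (-4.25 ± 0.46, adjusted p = 5.67e-10), Dusp5 21.7, 5.66 and 9.08 against 47.1, 63.8, 89.7 and 72.6 (-2.55 ± 0.41, adjusted p = 8.31e-06) and Cd69 24.6, 32.9 and 18.4 against 81.1, 105, 203.5 and 187 (-2.40 ± 0.34, adjusted p = 8.31e-07). These groups do not overlap, and the 3 calls held under all 14 alternatives. Itm2a was higher, at 51.7, 46.6 and 50.1 against 10.5, 28.8, 12.5 and 35.4 (1.32 ± 0.36, adjusted p = 0.0090), a call lost without DP library 1 and under 3 other alternatives (adjusted p 0.058 to 0.157). Thus 4 of 8 passed against 10.4% of all genes. Cd5 was close in both (0.07, 95% interval -0.55 to 0.69), and Nr4a1 did not pass (-0.54, -1.41 to 0.32).
Of the other T cell receptor response genes, 8 of 29 tested were lower and 1 higher, with a median of -0.39 against 0 over all genes. Those lower include Nr4a2 (-2.41 ± 0.48), the inhibitor Nfkbia (-1.98 ± 0.23) and the ERK antagonists Spry1 (-1.29 ± 0.34) and Spry2 (-1.68 ± 0.38). The one higher was Nab2, a corepressor of Egr factors (1.79 ± 0.43). None of the 19 genes of the receptor and proximal signalling list passed, with a median of -0.08. Trac, the alpha chain constant gene, was lower, at 90.4 to 128 FPKM in iDP against 609 to 756 in DP, and no test of it is given here. Of the handling list 3 of 14 were lower (Fos, Junb and Ier2) and 3 higher (Hspa1a, Hspa1b and Jund), and its part was not tested.

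At CD4 SP, 5 of 8 members were lower in induced cells and none higher, against 12.4% of all genes lower and 26.4% called in either direction. Dusp6 was 1.96, 0.921, 5.53 and 1.54 FPKM in iCD4_SP against 36.9, 48.8 and 44.8 (-3.83 ± 0.46, adjusted p = 1.02e-09), and Nr4a3 2.07, 4.44, 0.0955 and 1.37 against 10.3, 13.6 and 15.9 (-2.46 ± 0.49, adjusted p = 7.82e-05). Itm2a was 250, 245, 408 and 245 against 1041, 1135 and 1187 (-1.996 ± 0.36, adjusted p = 9.96e-06). Cd69 was 70.5, 54.4, 47.8 and 67.7 against 227, 248 and 204.3 (-1.91 ± 0.34, adjusted p = 1.13e-05), and Cd5 58.7, 74.7, 77.9 and 72.8 against 251, 227 and 220 (-1.70 ± 0.31, adjusted p = 1.51e-05). In these 5 genes, already picked as called, the libraries of the groups do not overlap.
Nr4a1 did not follow them. It was at 22.8, 42.8, 21.8 and 42.2 FPKM in iCD4_SP and at 39.4, 27.4 and 35.8 in CD4_SP (-0.13, 95% interval -0.997 to 0.74). Dusp5 did not pass (-0.98 ± 0.41, adjusted p = 0.066), and passed without iCD4_SP library 2, its highest, and under 2 other alternatives (adjusted p 0.016 to 0.043). With a pseudocount of 0.1 the Cd5 call was lost (adjusted p = 0.071). Scaling every library to an equal total moved the median of 9090 genes, picked by a higher mean FPKM over all libraries, by 0.285 in this comparison, upward. The 5 calls held under that scaling.

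Other genes of the pathway were counted beside them. Of the other response genes, 17 of 29 were lower and 3 higher in iCD4_SP (median -1.14 against 0 over all genes). Among those lower were the costimulatory receptors Tnfrsf9 (-3.16 ± 0.39), Tnfrsf4 (-2.98 ± 0.61) and Tnfrsf18 (-2.41 ± 0.37), the checkpoint receptor Ctla4 (-3.09 ± 0.34) and Cd6, a relative of Cd5 (-1.62 ± 0.24). The 3 higher were Id3 (2.25 ± 0.39), an inhibitor of E proteins, Spry1 (1.59 ± 0.34) and Myc (1.15 ± 0.33). Of the receptor and proximal signalling genes 10 of 19 were lower and 0 higher (median -0.60), with Ptprc, the phosphatase CD45 (-1.98 ± 0.16), and Fyn, a Src family kinase (-1.39 ± 0.21), among them. Of the ERK feedback list 4 of 11 tested genes were lower and 1 higher, and the other 6 did not pass (median -0.83). The ERK feedback list and the other response list are not fully separate, so a gene can be counted in both. All 10 single positive maturation genes were lower (median -2.63), such as the egress receptor S1pr1 (-4.12 ± 0.40) and Ccr7 (-3.80 ± 0.45).
Of the DP stage genes 8 of 9 were higher (median 4.94), with summed levels of 2215 to 2638 FPKM in iCD4_SP against 253 to 291. Cd4, which the sort used, was 70.9 to 77.1 FPKM in iCD4_SP and 61.0 to 64.8 in CD4_SP, Cd8b1 115 to 148 against 33.8 to 65.8, and Trac 343 to 447 against 1105 to 1333. Markers of other cell types moved as well. The sum of 7 natural killer markers was 204 to 331 FPKM in CD4_SP, where 6 of the 7 were above 0 and Ncr1 was at 0, against 1.92 to 14.8 in iCD4_SP, where only Nkg7 was above 0. The sum of 8 myeloid markers was 180 to 298 against 21.7 to 44.3, with Mpo, Elane and Ly6g at 0 in both groups, and that of 8 dendritic cell markers 46.0 to 225 against 23.8 to 37.9. The part of the stage genes and of these markers in the member differences was not tested.

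At CD8 SP, Dusp6, Cd69 and Cd5 were lower, 3 of 8 against 5.01% of all genes lower and 10.6% in either direction. Dusp6 was 0.532, 0.0649, 0.156 and 0 FPKM in iCD8_SP against 8.43, 7.87 and 9.54 (-3.03 ± 0.46, adjusted p = 7.75e-07), Cd69 16.3, 14.8, 27.6 and 43.1 against 69.0, 104 and 129 (-2.02 ± 0.34, adjusted p = 9.38e-06) and Cd5 14.7, 15.8, 20.2 and 12.1 against 32.2, 40.0 and 31.1 (-1.10 ± 0.31, adjusted p = 0.012). The groups do not overlap. The Cd5 call was lost without CD8_SP library 2 and with a pseudocount of 0.1 (adjusted p 0.077 to 0.392). Itm2a, at 34.9, 33.8, 50.5 and 37.4 against 68.6, 87.1 and 65.8, did not pass (-0.91 ± 0.36, adjusted p = 0.099), although it passed under 4 alternatives (0.0057 to 0.038). Nr4a1 was again close in both (0.20, 95% interval -0.67 to 1.06).
Of the other response genes 14 of 29 were lower and 0 higher, and of the maturation genes 9 of 10 were lower. The DP stage list, in contrast to CD4 SP, had 1 of 9 higher and 0 lower, with sums of 1912 to 2167 FPKM against 1560 to 1781. Cd8a was 288 to 334 FPKM in iCD8_SP and 318 to 379 in CD8_SP. The natural killer markers summed to 276 to 336 FPKM in CD8_SP, with 7 of 7 above 0, against 6.31 to 20.9 in iCD8_SP, with 4 of 7 above 0. The myeloid markers summed to 52.6 to 82.7 against 1.82 to 5.47, with Elane and Ly6g at 0 in both groups, and the dendritic cell markers to 58.0 to 422 against 22.8 to 44.6. Their part in the member differences was not tested.

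Within each source, CD4 SP cells held more of these transcripts than CD8 SP cells. In natural cells 7 of 8 members were higher in CD4 SP and none lower, against 12.4% of all genes higher and 22.7% in either direction. The differences were 3.91 ± 0.38 for Itm2a (adjusted p = 1.98e-12), 2.73 ± 0.33 for Cd5, 2.43 ± 0.53 for Nr4a3, 2.21 ± 0.49 for Dusp6, 1.94 ± 0.46 for Nr4a1, 1.85 ± 0.43 for Dusp5 and 1.201 ± 0.37 for Cd69 (adjusted p = 0.011). Egr2 did not pass (0.69, 95% interval -0.45 to 1.83). The Cd69 call was lost without CD8_SP library 1 and with library weights (adjusted p 0.055 to 0.093), and the Nr4a3 call with a pseudocount of 0.1 (0.076).

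In induced cells 6 of 8 were higher in iCD4_SP than in iCD8_SP, against 4.67% of all genes higher and 7.53% in either direction. These were Itm2a (2.83 ± 0.33, adjusted p = 3.64e-09), Cd5 (2.12 ± 0.29), Nr4a1 (1.62 ± 0.40), Dusp5 (1.55 ± 0.38), Dusp6 (1.41 ± 0.42) and Cd69 (1.32 ± 0.32). Nr4a3 (0.92 ± 0.46, adjusted p = 0.274) and Egr2 did not pass. The Dusp6 call was lost under 4 of 15 alternatives (adjusted p 0.054 to 0.170), those without iCD4_SP library 3 or iCD8_SP library 2, 3 or 4.
The CD4 over CD8 difference itself was not shown to differ between the sources for any of the 8 members in limma, where 8.06% of all genes differed. Nr4a3 (-1.51, 95% interval -2.91 to -0.11) and Itm2a (-1.09, -2.10 to -0.08) were the 2 with an unadjusted p under 0.05, and Itm2a passed with only these groups in the fit (adjusted p = 0.020). Cd69 gave 0.11 (-0.85 to 1.08) and Nr4a1 -0.33 (-1.55 to 0.90). Of the DP stage genes 7 of 9 differed in this test, and of the handling list none of 14.

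**Figure D4:**
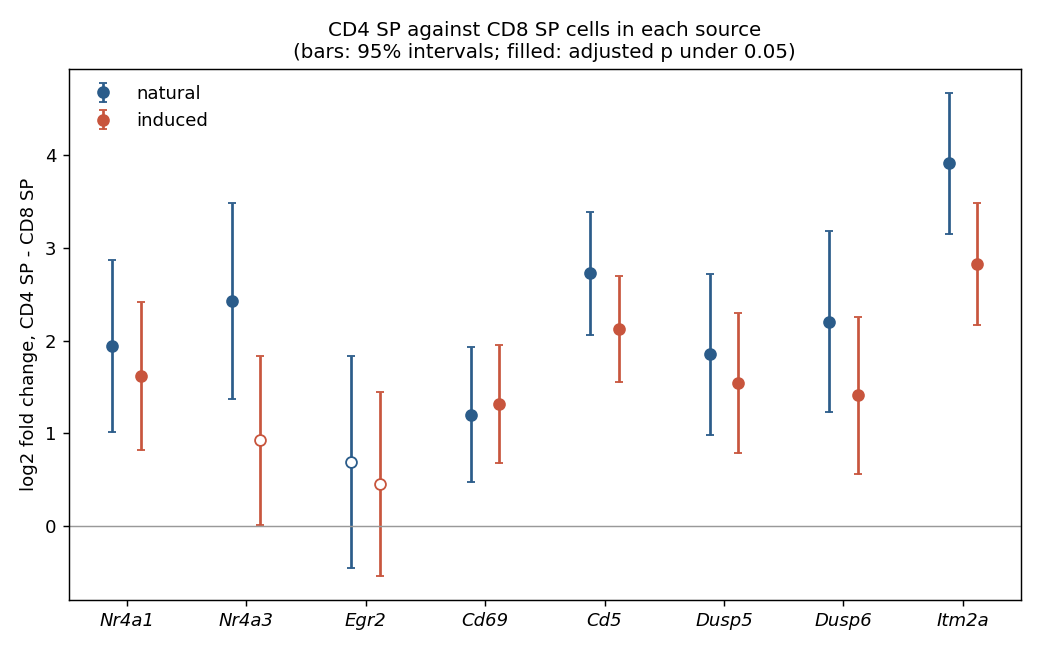
Each member has 2 points for the log2 fold change of CD4 SP over CD8 SP libraries, natural in blue and induced in red, with bars for 95% intervals and filled points for an adjusted p under 0.05. All 16 points lie above 0, and natural and induced intervals overlap for each member.

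The lists were counted between the lineages in the same way. Of the other response genes, 14 of 29 were higher in natural CD4 SP and 11 of 29 in iCD4_SP, and 0 were lower in either. Among them Tnfrsf4, the receptor OX40, differed by 5.02 ± 0.65 in natural and by 2.41 ± 0.56 in induced cells, Irf4, a factor induced in proportion to receptor signal, by 2.26 ± 0.34 and 1.04 ± 0.29, and Egr1 by 1.40 ± 0.50 and 1.78 ± 0.43. Of the receptor and proximal signalling genes 14 of 19 and 9 of 19 were higher, with Fyn at 1.98 ± 0.22 and 1.84 ± 0.19. In natural cells 7 of 9 DP stage genes were lower and 1 higher in CD4 SP, whereas in induced cells 3 were higher and 1 lower. Which part the stage of the sorted cells has in the member differences was not tested.

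Mature T cells of the marrow, compared with natural CD4 SP thymocytes, had lower levels of 6 of 8 members, against 8.98% of all genes lower and 18.3% in either direction. Itm2a was 61.7, 49.9 and 50.6 FPKM (-4.35 ± 0.38, adjusted p = 2.61e-13), Dusp6 3.75, 3.47 and 1.33 (-3.59 ± 0.49) and Nr4a1 19.6, 4.49 and 1.76 (-2.36 ± 0.46). Dusp5 (-1.94 ± 0.43), Nr4a3 (-1.93 ± 0.53) and Cd69 (-1.18 ± 0.37) were lower too. Cd5 did not pass (-0.75 ± 0.33, adjusted p = 0.113), nor did Egr2. Mature T library 1 was the highest of its group in Nr4a1, Nr4a3 and Egr2. The Cd69 call was lost without mature T library 1 or 2 or CD4_SP library 2 and with library weights (adjusted p 0.051 to 0.105), and the Nr4a3 call without mature T library 3 and under 2 other alternatives (0.073 to 0.189). With only these groups in the fit the Nr4a1 call was lost (0.069). Mature T cells carried both Cd4 (43.5 to 67.3 FPKM) and Cd8a (278 to 310), so transcripts of both coreceptors were in this sort.

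The B lineage uses the same genes below its own receptor. From Pro-_Pre-B to mature B cells, Nr4a1 rose from 0, 0 and 0.845 FPKM to 5.43, 8.19, 5.78 and 6.96 (2.62 ± 0.43, adjusted p = 2.06e-06) and Egr2 from 0, 0.0821 and 0 to 6.68, 5.23, 1.68 and 1.35 (2.02 ± 0.53, adjusted p = 0.0026). Dusp6 fell from 36.5, 38.3 and 17.0 to 10.5, 2.04, 12.8 and 6.19 (by 1.96, SE 0.46), and Dusp5 fell from 14.2, 18.3 and 24.4 to 9.24, 7.19, 12.6 and 2.54 (by 1.29, SE 0.41). These 4 of 8 stand against 25% of all genes. The Dusp5 call was lost without Pro-_Pre-B library 4 or mature B library 4 and under 2 other alternatives (adjusted p 0.064 to 0.113). Cd69 was 36.7 to 67.1 FPKM before and 45.7 to 77.8 after, and Cd5 stayed below 2 FPKM in both. Of the handling list 3 of 14 genes rose and 2 fell.

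Across the 24 group means the members were only loosely alike. The highest Pearson correlations between members were 0.79 for Nr4a3 with Egr2 and for Nr4a3 with Itm2a, 0.71 for Cd5 with Itm2a and 0.67 for Cd69 with Dusp5. The genes most like each member, by Pearson correlation of log2(FPKM + 1) over the 24 group means, included Cd6 and Txk for Cd5 (0.97 and 0.90) and Tnfrsf9, BC106179 and Icos for Nr4a3 (0.91, 0.89 and 0.88). For Itm2a they were Zdhhc15, Izumo1r and Cd28 (0.84, 0.82 and 0.80), and for Nr4a1 Fam102b, Zfp512b and Klf6 (0.82, 0.79 and 0.75). Those of Egr2 were Cyld, Jak1 and Ptprc (0.85 to 0.81), of Cd69 Yipf5, Prpsap2 and Dnaja1 (0.79 to 0.77), of Dusp5 Atg12, Pigx and Map1lc3b (0.81 to 0.77) and of Dusp6 Gpbp1l1, Wsb1 and Trp53inp2 (0.82 to 0.80). Group means share libraries, depth and lineage, so these values only describe the table.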

How the data were processed

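RNA of 1000 sorted cells per library was prepared with the Nextera XT kit, per the labels' protocols. The authors deposited FPKM values for 76 libraries, made with bcl2fastq, TopHat, Cufflinks 2.2.1 and Cuffnorm on NCBIM37, per the submitters' processing notes; what each tool did is not given in the sources used here. Pro-_Pre-B rep3 repeats rep1 and was left out. Ensembl IDs were matched to symbols with GENCODE vM21 (32916 of 37980 rows, 86.7%).

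Genes at 1 FPKM or more in 2 or more libraries (17416) were fitted as log2(FPKM + 1) in limma 3.58.1 (R 4.3.3; trend and robust empirical Bayes), with 1 mean for each of 24 groups and 51 residual degrees of freedom. The fit was checked on simulated data for induced against natural cells at CD4 SP and at DN3. The simulated noise was normal and independent between libraries, as the fit assumes, so the check does not cover other kinds of noise. The step differences were not checked in this way. P-values were adjusted over all genes, with a threshold of 0.05, for each of 27 comparisons. The pseudocount shrinks changes of genes near 1 FPKM. Fragments per FPKM and kilobase were estimated from the spacing of low values among 4297 genes with a single transcript. For each library the scale that brought these low values closest to whole numbers was taken. At that scale 72.3 to 93.5% of the low values per library lay within 0.2 of a whole number.

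The members and gene lists were chosen with earlier results of these data known. Genes named beyond the members come from those lists, with the list's count, or are the 3 with the highest correlation to a member among named genes that reach a group mean of 5 FPKM. One gene under this rule is not reported here. Same-numbered libraries did not deviate together, so replicate numbers were not used as a block. Alternatives were another pseudocount, no filter, equal totals, quantile normalization, library weights, the replicate block, only the compared groups in the fit, each library left out, and 3 libraries doubted in earlier work left out. Promoters and motif shares are from RefSeq (GRCm38.p6), and no coordinate was moved between builds.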

Additional observations from a re-analysis of the deposited data

Results flagged for a closer look

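Among groups of 4 libraries, 59 sets of member values were searched for a library far from the rest, which chance gives in about 1 in 20 sets, and 2 were found. The lowest iDN4 library for Cd5 was at 14.16 FPKM beside 16.2, 16.2 and 16.5, and the highest iCD4_SP library for Itm2a at 407.8 beside 245, 245 and 250.

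A developmental step differed between induced and natural cells, by a test of the difference itself in the limma fit, for 9 member values. From DN4 to DP the induced minus natural difference of the log2 change was -3.412 for Cd69, -3.401 for Dusp6 and -2.137 for Dusp5. From DP to CD4 SP it was -3.313 for Itm2a, -2.919 for Nr4a3, -1.769 for Cd5 and 1.568 for Dusp5. From DP to CD8 SP it was -2.224 for Itm2a and 1.873 for Dusp5. The same 3 iDP and 4 natural DP libraries enter all 9 values.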

How the results depend on the processing

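Of 81 member calls over 27 comparisons, 46 held under every alternative tried for them and 35 were lost under 1 or more. Of 135 member tests without a call, 21 passed under 1 or more. Among 3172 alternative values of members none reversed a call, 148 lost one and 41 gained one. A pseudocount of 0.1 lost most calls, 22.

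The number of members called moved by over 1.5 times as follows. With a pseudocount of 0.1 it went from 3 to 1 for thymic ETPs, from 2 to 0 for DN2, from 2 to 1 for natural DN3 to DN4, from 6 to 3 for natural DN4 to DP, from 3 to 1 for iDN3 to iDN4, from 1 to 2 for iDP to iCD8_SP, and, for the step differences, from 4 to 1 (DP to CD4 SP) and from 2 to 1 (DP to CD8 SP). Quantile normalization gave 1 in place of 2 at DN3. Library weights gave 1 at DN3, 1 in place of 0 at DN4, 1 for natural DN3 to DN4 and 1 for the DP to CD8 SP step difference. With only the compared groups in the fit the count was 1 in place of 0 at DN1 and DN4, 0 at DN2, 1 at DN3, 1 in place of 0 for the CD4 over CD8 difference between sources, and 1 for BM_iETPs over Pro-_Pre-B. It was 1 at DN2 when the 3 doubted libraries (library 2 of DN2, and 1 and 2 of DN1) were left out.

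Leaving out 1 library at a time gave 1 to 3 members called for BM_iETPs over Pro-_Pre-B (2 with all libraries), 1 to 2 for the DP to CD8 SP step difference (2), 0 to 3 at DN2 (2), 0 to 2 at DN3 (2), 3 to 5 for natural DP to CD8 SP (5), 0 to 1 for natural DN3 to DN4 (2), 1 to 3 for marrow ETPs (3) and 1 to 4 for thymic ETPs (3).

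Replicate numbers shared between groups were tried as a replicate block. Same-numbered libraries correlated at -0.040 to 0.084 in their deviations from group means, so the numbers do not pair them. With the block 7 member calls were gained and 0 lost, and natural DN3 to DN4 went from 2 to 4 calls. Mature cells carry no replicate numbers in the labels, so their groups stayed out of that fit.

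Scaling to equal totals moved the median of 9090 genes by -0.290 to 0.313 (log2) between comparisons. For Egr2, Egr3 and Nr4a3, 1 fragment is worth up to 0.346, 0.260 and 0.179 FPKM (medians 0.079, 0.060 and 0.041). For Nr4a1, Dusp5 and Itm2a it is worth up to 0.402, 0.415 and 0.588 FPKM. The part of depth in the low values of Egr2, Egr3 and Nr4a3 was not tested.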
